A study of Mus musculus with 2 samples.

Results

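Mitosis genes encode the machinery that condenses chromosomes, builds the spindle, attaches chromosomes to it and divides the cell. Here they are a list of 40 genes taken by symbol out of 55414 genes in the files, and 40 of 40 were found. The genes were followed in single-nucleus RNA-sequencing data of C2C12 cells, a mouse myoblast line that divides in growth medium. The libraries were made with the 10x Genomics Chromium v3 kit, which primes RNA with oligo(dT) and counts unique molecular identifiers (UMIs, a tag for each captured molecule). One library held methanol-fixed nuclei in which yeast poly(A) polymerase had extended RNA 3′ ends before capture (in situ polyadenylated nuclei), and the other held methanol-fixed nuclei of the same line without that enzyme step (standard nuclei). The study's methods name no synchronization or sort by cell-cycle phase, and the labels give no phase. The standard nuclei also went without the warm incubation and the wash that came with the enzyme, so the effects of enzyme, incubation and wash cannot be told apart. The enzyme mix for nuclei held the RNase inhibitor SUPERase-In. The study reports for tissue sections that this inhibitor failed to keep longer transcripts from degrading during the enzyme step. Each group had 1 library, so no difference between them has a replicate check and no p-value is given. All intervals are 95% intervals that cover counting error only.

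In dividing cells most mitosis genes are transcribed late, in the S and G2 phases, and their products act from nuclear envelope breakdown to cytokinesis. Their promoters are known for a pair of short elements: the cell cycle genes homology region (TTTGAA), at which the MuvB complexes repress in quiescence and activate in G2, and CCAAT boxes, which are bound by the trimeric factor NF-Y. After mitosis many of these proteins are destroyed by the anaphase-promoting complex (APC/C), while the RNA is seen in the nucleus as the newly made and not yet exported pool.

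Promoter windows of 300 bases (250 before the start site to 50 after it) were read from RefSeq promoter sequences on the GRCm38.p6 build, an older build than the GRCm39 of the expression files. A window was matched for 34 of 40 members. Both motifs were searched on both strands, so that CCAAT also counts as ATTGG and TTTGAA as TTCAAA, and the motifs share no run that could be counted under both. TTTGAA was present for 28 of the 34 genes (82.4%), against 20.2% of 27025 genes in the whole table. CCAAT was present for 26 (76.5%), against 41.1% of all genes, and at least 2 copies of it for 16 (47.1%), against 13.3%. Both motifs occurred together for 23 members (67.6%), against 7.97% of all genes. Within 50 bases of the start site TTTGAA was found for 25 members (73.5%) and for 5.72% of all genes.

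The windows printed here were picked because they show the pairing in genes of different mitotic roles. Each runs from 120 bases before the start site to base 29 after it, 5′ to 3′ on the strand of the gene, and capitals mark the CCAAT and TTTGAA matches. Their places on GRCm38.p6 are chr7:80294331-80294480 (plus strand) for Prc1, chr11:99024160-99024309 (minus strand) for Top2a, chr2:164769809-164769958 (plus strand) for Ube2c, chr1:189688057-189688206 (minus strand) for Cenpf and chr11:40733408-40733557 (minus strand) for Hmmr.
Prc1: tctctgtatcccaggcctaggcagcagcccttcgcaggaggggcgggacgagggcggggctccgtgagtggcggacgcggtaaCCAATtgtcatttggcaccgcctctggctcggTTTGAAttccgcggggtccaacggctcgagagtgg
Top2a: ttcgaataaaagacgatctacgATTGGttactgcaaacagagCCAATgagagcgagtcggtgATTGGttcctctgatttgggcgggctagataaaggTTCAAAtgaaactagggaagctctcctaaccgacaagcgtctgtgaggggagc
Ube2c: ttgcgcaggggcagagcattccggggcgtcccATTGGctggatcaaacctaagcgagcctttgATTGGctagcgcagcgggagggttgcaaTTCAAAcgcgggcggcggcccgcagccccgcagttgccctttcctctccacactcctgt
Cenpf: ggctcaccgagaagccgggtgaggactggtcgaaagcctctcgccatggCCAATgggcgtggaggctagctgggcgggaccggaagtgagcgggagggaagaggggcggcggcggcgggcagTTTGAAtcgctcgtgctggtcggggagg
Hmmr: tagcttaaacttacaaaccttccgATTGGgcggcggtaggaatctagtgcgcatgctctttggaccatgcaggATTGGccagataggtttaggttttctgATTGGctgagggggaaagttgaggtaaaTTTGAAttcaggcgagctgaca
Within the printed stretch of Top2a 3 CCAAT matches lay at -98, -78 and -58 from the start site and TTTGAA at -23. Ube2c had CCAAT at -88 and -57 and TTTGAA at -29. In Hmmr the 3 CCAAT matches at -96, -47 and -20 were all on the opposite strand, and TTTGAA lay at base 8 after the start. Cenpf carried CCAAT at -71 and TTTGAA at base 2, and Prc1 CCAAT at -37 and TTTGAA at -5. The longer windows used for the counts hold further CCAAT matches upstream for Cenpf, Hmmr, Top2a and Ube2c. A match is a description of the letters in the window and not evidence that a factor binds there.

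A list of 80 other mitosis genes and a list of 55 DNA replication genes served as comparisons. TTTGAA was found for 44.6% of 65 matched genes of the first list and for 11.4% of 44 matched genes of the second, whereas CCAAT was at 61.5% and 61.4%. Near the start site TTTGAA stood at 73.5% for the members, 36.9% for the other mitosis genes, 4.55% for the replication genes and 5.72% for all genes. CCAAT stood there at 52.9%, 44.6%, 40.9% and 15.6%. The lists thus lay further apart in TTTGAA than in CCAAT.

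Nuclei were barcodes with over 750 UMIs in the kallisto matrix, the filter that the study used, with under 5% mitochondrial UMIs (which removed 0 barcodes). This left 1335 in situ polyadenylated and 1123 standard nuclei with median depths of 1088 and 996 UMIs. No nucleus barcode was shared between the libraries (0 in common). The STAR matrix held 1328 and 1123 of these nuclei at median depths of 6787.5 and 4478 UMIs. In it, Peak1 alone took 30.4% of the UMIs of in situ polyadenylated nuclei and 0.102% of those of standard nuclei, so shares of all UMIs are not comparable between the libraries without a second scale. The myoblast markers Vim (1314 UMIs in standard and 922 in in situ polyadenylated nuclei) and Des (636 and 360) were well detected. The muscle regulators Myod1 (13 and 15) and Myf5 (9 and 6) were sparse. Differentiation genes varied: Myog (2 and 3), Mymk (2 and 2) and Ckm (1 and 1) were close to the floor of 3 UMIs. Acta1 had 10 and 7 UMIs, while Myh3 (77 and 99) and Tnnt1 (35 and 31) had more than Myod1. Of the markers of other cell types, Epcam was at 0 in both libraries, Ptprc at 4 and 0, and the endothelial marker Pecam1 at 35 and 10.

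The 40 members together held 9001 UMIs in standard nuclei and 4249 UMIs in in situ polyadenylated nuclei in the kallisto matrix. As CPM (UMIs scaled to an equal library total) this was 6509 and 2152, a log2 ratio of in situ polyadenylated to standard of -1.60 (-1.65 to -1.54). In the STAR matrix the sums were 36998 and 16755 UMIs and the log2 ratio was -2.03 (-2.06 to -2.00). CPM was lower in the in situ polyadenylated library for 40 of 40 members in both matrices. The share of all protein-coding genes lower in CPM was not counted. Among protein-coding genes that reached 50 UMIs in both libraries, the median log2 ratio was also negative, at -1.19 in kallisto and -1.92 in STAR. Single genes went the other way, such as Lars2, with 0.148% of kallisto UMIs in standard and 4.92% in in situ polyadenylated nuclei. Values are therefore given below as relative log2 ratios, in which that median gene is set to 0. On this scale the member sum was at -0.40 (-0.46 to -0.35) in kallisto and -0.11 (-0.14 to -0.08) in STAR. As a share of the protein-coding pool (protein-coding genes that each hold under 1% of UMIs) the members made up 1.18% and 0.891% in kallisto and 0.795% and 0.517% in STAR, standard first. The sum was below 0 on every one of these scales, while its size depended on the scale.

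**Figure D1:**
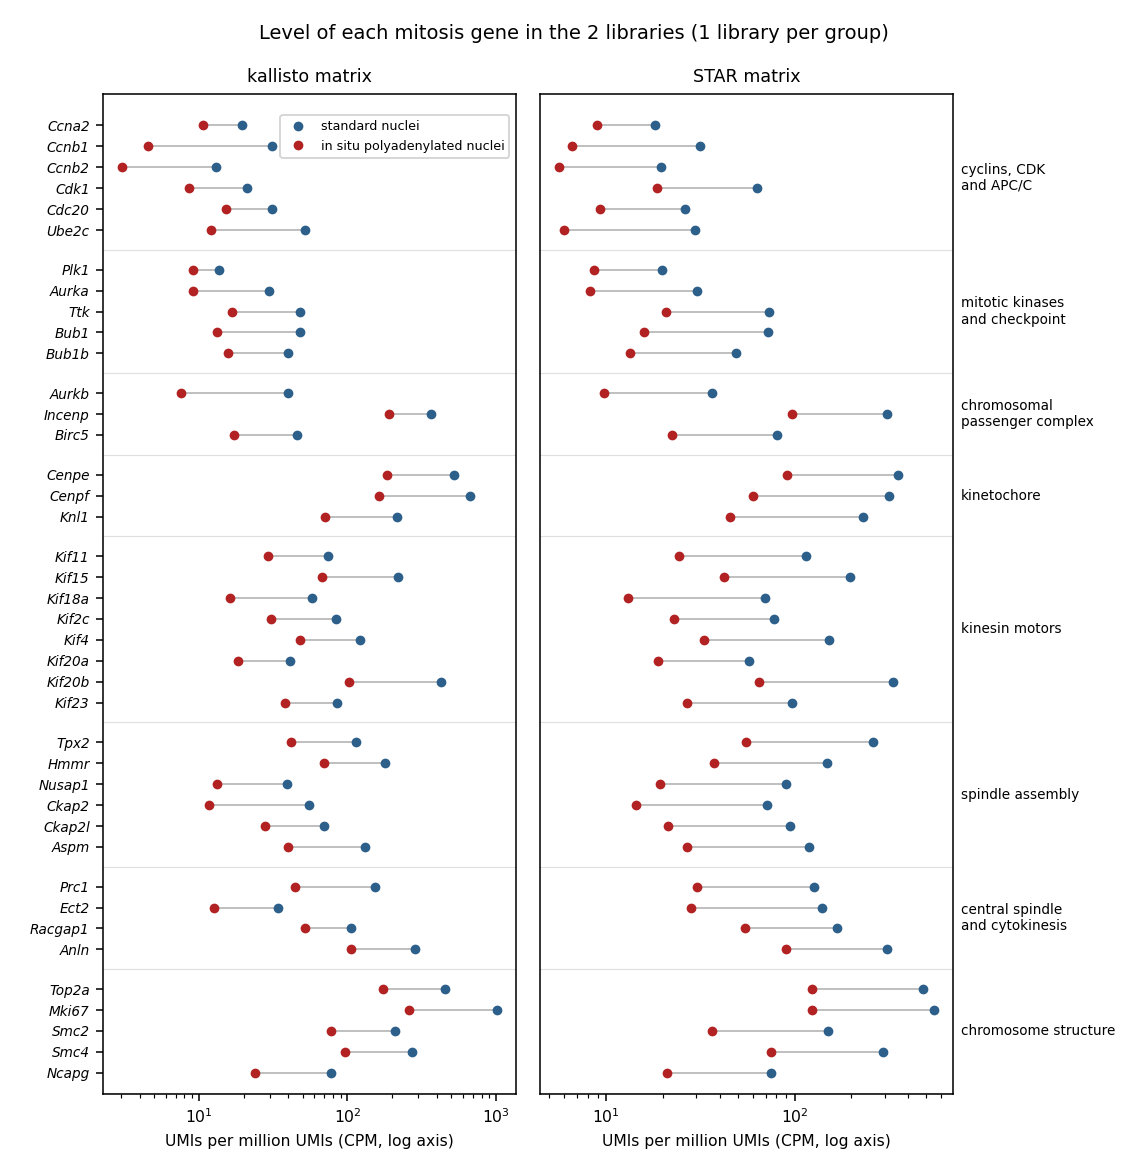
Level of each of the 40 mitosis genes (rows, grouped by role) in CPM on a log axis, in the kallisto matrix (left) and the STAR matrix (right), with 1 point per library and a grey line joining them. The in situ polyadenylated point lies left of the standard point for 40 of 40 genes in both matrices.

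All 40 members had at least 20 UMIs in both libraries together. In kallisto 3 of them (Ccnb1, Aurkb and Ckap2) lay over 2-fold below the median protein-coding gene and 0 lay over 2-fold above it, against 10.5% below and 2.73% above among all 8016 protein-coding genes tested in the same way. In STAR 0 members lay over 2-fold to either side, against 2.21% below and 13.1% above among 12382 genes. The median relative log2 ratio of the members was -0.29 in kallisto, where that of all tested genes was -0.21, and -0.06 in STAR, where all tested genes stood at 0.06. Among genes with at least 200 UMIs the kallisto medians were -0.30 for 17 members and -0.06 for all 1395 genes, and the STAR medians -0.06 for 39 members and -0.04 for all 7001 genes. Intervals lay wholly below 0 for 16 members in kallisto (all genes, 16.6%) and for 14 in STAR (all genes, 20.4%). They lay wholly above 0 for 1 member in kallisto (all genes, 7.65%) and for 7 in STAR (all genes, 27.7%). Cenpf, Knl1, Kif15, Kif18a, Kif20b, Ckap2, Aspm and Mki67 were the 8 members whose intervals were below 0 in both matrices, and Incenp was the 1 member above 0 in both. Such calls in both matrices were not counted over all genes. For Cenpf, Knl1 and Kif18a most kallisto entries in standard nuclei were not whole numbers, so their kallisto values are uncertain beyond these intervals. The direction was below 0 in both matrices for 23 members, above 0 in both for 7, and below in kallisto but above in STAR for 10. Over all tested protein-coding genes, 64.3% lay below 0 in kallisto and 45.8% in STAR. The share of them below 0 in both matrices was not counted. Interval width follows the UMI count, so these counts favour abundant genes. Over the 40 members the relative log2 ratio had a Pearson r with the log2 of gene span of -0.48 in STAR and 0.06 in kallisto. With the log2 of annotated exon length r was -0.38 and -0.04. The cause was not tested.

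**Figure D2:**
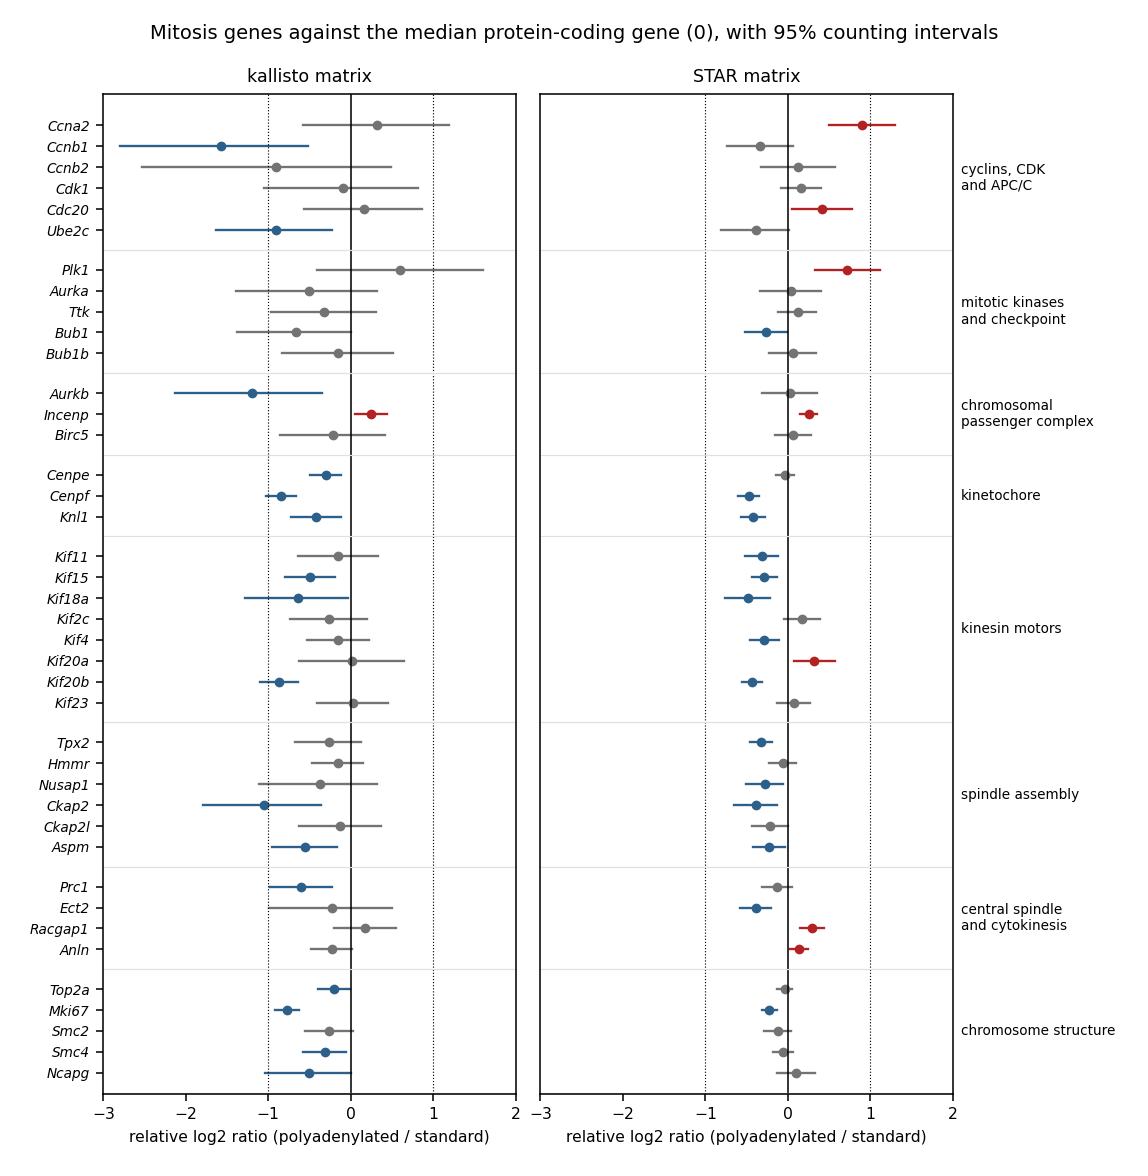
Relative log2 ratio (in situ polyadenylated to standard, median protein-coding gene at 0) of each mitosis gene with its 95% counting interval, in kallisto (left) and STAR (right). Dotted lines mark 2-fold, blue intervals lie wholly below 0 (16 and 14 genes), red ones wholly above 0 (1 and 7 genes), and grey ones span 0.

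Chromosome structure genes carried the most UMIs of the 8 role groups. Mki67 encodes Ki-67, the surfactant of mitotic chromosomes and a widely used proliferation marker (chromosome 7, bases 135291513 to 135318299 on the minus strand of GRCm39). It had 1405 UMIs (1016 CPM) in standard nuclei and 515 UMIs (261 CPM) in in situ polyadenylated nuclei, and 3424 and 1433 UMIs in STAR. Its relative log2 ratio was -0.77 (-0.92 to -0.62) in kallisto and -0.22 (-0.31 to -0.13) in STAR, so it lay below the median gene in both matrices, by sizes that differ between them. Top2a, the topoisomerase that untangles sister chromatids, had 630 and 343 UMIs with relative log2 ratios of -0.20 and -0.04. The condensin ATPases Smc2 (291 and 152 UMIs) and Smc4 (376 and 189 UMIs) stood at -0.26 and -0.31 in kallisto and at -0.13 and -0.06 in STAR. Ncapg, a condensin I subunit, had 107 and 47 UMIs and changed side between the matrices, from -0.51 to 0.10.

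Kinetochore genes had the lowest summed relative log2 ratio of the groups, -0.56 (-0.67 to -0.44) in kallisto and -0.27 (-0.34 to -0.20) in STAR. Cenpf, a large farnesylated coiled-coil protein of the outer kinetochore (chromosome 1, bases 189372752 to 189420315, minus strand), had 927 UMIs (670 CPM) in standard and 323 UMIs (164 CPM) in in situ polyadenylated nuclei. In STAR the counts were 1981 and 696. The relative log2 ratios were -0.84 (-1.03 to -0.66) and -0.48 (-0.60 to -0.35). Knl1, the scaffold that docks checkpoint proteins, had 297 and 139 UMIs and nearly equal ratios of -0.42 and -0.42 in the matrices. Cenpe, a kinetochore-bound kinesin that brings chromosomes to the spindle equator, had 721 and 365 UMIs at -0.30 in kallisto, whereas STAR placed it at -0.03.

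The kinesin motors lay on both sides of 0. Kif20b, which acts in cytokinesis (chromosome 19, bases 34899752 to 34953149, plus strand), had 593 UMIs (429 CPM) and 203 UMIs (103 CPM) in standard and in situ polyadenylated nuclei, with 2069 and 749 in STAR. Its ratios were -0.87 (-1.11 to -0.64) and -0.43 (-0.56 to -0.31). Kif15 (-0.49 and -0.29), a spindle motor that backs up Kif11, and Kif18a (-0.64 and -0.49), which limits chromosome oscillation, were also below 0 in both matrices. Kif11, the bipolarity motor, had 103 and 58 UMIs at -0.15 and -0.32, and the chromokinesin Kif4 167 and 94 UMIs at -0.15 and -0.29. Kif20a and Kif23, motors of the central spindle, stood near 0 in kallisto (0.015 and 0.024) and at 0.32 and 0.07 in STAR. Kif2c, a microtubule depolymerase, went from -0.26 to 0.17.

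The 6 spindle assembly genes were all below 0 in both matrices, where 64.3% (kallisto) and 45.8% (STAR) of all tested genes were, and several of their intervals spanned 0. Hmmr, which focuses spindle poles (chromosome 11, bases 40592167 to 40624288, minus strand), had 246 UMIs (178 CPM) and 138 UMIs (69.9 CPM), and 922 and 431 in STAR. Its ratios of -0.16 (-0.47 to 0.15) and -0.06 (-0.23 to 0.10) had intervals that span 0. Tpx2, the activator of Aurora A, had 158 and 82 UMIs at -0.27 (-0.67 to 0.13) and -0.33 (-0.46 to -0.19). Aspm, a spindle pole protein, had 183 and 78 UMIs at -0.55 and -0.22. Ckap2, a microtubule stabilizer, had 76 and 23 UMIs at -1.05 (-1.79 to -0.36) and -0.39 (-0.66 to -0.13). Nusap1 and Ckap2l ranged from -0.38 to -0.13 over both matrices. Their kallisto intervals spanned 0, as did that of Ckap2l in STAR.

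Genes of the central spindle and cytokinesis lay on both sides. Anln encodes anillin, the scaffold of the contractile ring (chromosome 9, bases 22242402 to 22300501, minus strand), and had 392 UMIs (283 CPM) and 209 UMIs (106 CPM). With 1934 and 1041 UMIs in STAR it moved from -0.23 (-0.48 to 0.02) in kallisto to 0.14 (0.03 to 0.25). Racgap1, the centralspindlin partner of Kif23, had 146 and 103 UMIs and was above 0 in both matrices (0.17 and 0.29). Prc1, which bundles antiparallel microtubules, had 211 and 87 UMIs at -0.60 and -0.13. Ect2, the RhoA exchange factor, had 47 and 25 UMIs at -0.23 and -0.39.

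In the chromosomal passenger complex the subunits differed. Incenp, its scaffold (chromosome 19, bases 9846569 to 9876924, minus strand), had 507 UMIs (367 CPM) in standard and 376 UMIs (190 CPM) in in situ polyadenylated nuclei. In STAR the counts were 1927 and 1120, and the relative log2 ratios were 0.25 (0.05 to 0.44) and 0.25 (0.14 to 0.36). Aurkb, the kinase of the complex, had 55 and 15 UMIs and a kallisto ratio of -1.20 (-2.13 to -0.35). In STAR Aurkb had 228 and 113 UMIs and a ratio of 0.02, so its place more than 2-fold below the median gene held in one matrix only. Birc5, which encodes survivin, had 63 and 34 UMIs at -0.21 and 0.06.

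Mitotic kinases and checkpoint genes were sparse. Ttk, the Mps1 kinase that starts the spindle checkpoint (chromosome 9, bases 83703392 to 83755037, plus strand), had 66 UMIs (47.7 CPM) and 33 UMIs (16.7 CPM), with 453 and 240 in STAR. Its ratios of -0.32 (-0.97 to 0.30) and 0.12 (-0.11 to 0.35) both span 0. Plk1, the Polo kinase, had 19 and 18 UMIs and the highest kallisto ratio of the list, 0.60 (-0.41 to 1.61), and 0.72 (0.32 to 1.11) in STAR from 123 and 99 UMIs. Bub1, a checkpoint kinase, had 66 and 26 UMIs at -0.67 and -0.27, and Bub1b (BubR1) 55 and 31 UMIs at -0.15 and 0.06. Aurka, the centrosomal Aurora kinase, had 41 and 18 UMIs at -0.51 and 0.03.

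The cyclins, their kinase and the APC/C genes held the fewest UMIs, 232 and 107 in all over 6 genes. Ube2c, the ubiquitin-conjugating enzyme of the APC/C (chromosome 2, bases 164611768 to 164620742, plus strand), had 72 UMIs (52.1 CPM) and 24 UMIs (12.2 CPM), with 185 and 69 in STAR. Its ratios were -0.91 (-1.64 to -0.22) and -0.39 (-0.81 to 0.02). Ccnb1 (cyclin B1), the mitotic cyclin, had 43 and 9 UMIs and the lowest kallisto ratio of the list, -1.58 (-2.80 to -0.52), but 196 and 76 UMIs and -0.33 (-0.73 to 0.06) in STAR. Ccna2 (cyclin A2), active from S phase to early mitosis, had 27 and 21 UMIs at 0.32 in kallisto and the highest STAR ratio, 0.90 (0.50 to 1.30). Cdc20, the mitotic activator of the APC/C, also lay above 0 in both matrices (0.16 and 0.42). Cdk1 had 29 and 17 UMIs at -0.09 and 0.16, and Ccnb2 18 and 6 UMIs at -0.91 and 0.13.

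The matrices also counted at different rates. STAR gave 4.11 UMIs per kallisto UMI over the members in standard nuclei and 3.94 in in situ polyadenylated nuclei. The quotient ran from 2.14 for Cenpf to 18.6 for Ect2 in standard nuclei, and from 2.15 for Cenpf to 13.0 for Ect2 in in situ polyadenylated nuclei. Over the 40 members the quotients of the libraries had a Pearson r of 0.86, which describes genes counted with the same annotation and is no test. In kallisto some entries are not whole numbers, as arises when a UMI is divided among several genes, and 16 members had such fractional entries in standard nuclei. For Knl1 97.8% of its nonzero entries there were fractional, for Kif18a 84.8%, for Cenpf 75.7%, for Anln 74.0% and for Kif11 51.6%. In in situ polyadenylated nuclei these shares were lower, at 60%, 39.3%, 35.3%, 32.8% and 20.8% in the same order. The division of UMIs thus differed between the libraries whose ratio is given, and its effect on the ratio was not tested. The kallisto values of these genes are therefore uncertain beyond their intervals.

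To allow for gene length, levels of different genes were compared as kallisto CPM per kilobase of annotated exon, a rough scale for a method that primes at adenine runs. The length joins the exons of all annotated isoforms of a gene. UMI sums and detection shares of genes carry no such correction. On the length scale Mki67 led both libraries with 98.9 in standard and 25.4 in in situ polyadenylated nuclei. In standard nuclei Cenpe (57.7), Top2a (50.0), Kif20b (49.9) and Incenp (48.0) followed, and the median member stood at 14.3. Incenp was next to Mki67 in in situ polyadenylated nuclei, with 24.9, then Cenpe (20.5) and Top2a (19.1), with a median of 4.27. Cdk1 was lowest in standard nuclei (3.60) and Ccnb1 in in situ polyadenylated nuclei (1.06). Few genes held much of the signal: Mki67, Cenpf and Cenpe made up 33.9% of the member UMIs of standard nuclei, and Mki67, Incenp and Cenpe 29.6% of those of in situ polyadenylated nuclei.

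Among the comparison lists, the 80 other mitosis genes had a summed relative log2 ratio of -0.13 (-0.18 to -0.07) in kallisto and -0.03 (-0.05 to -0.0043) in STAR. Of the 77 of them with enough UMIs, 7 lay over 2-fold below and 3 over 2-fold above the median gene in kallisto. Among all tested protein-coding genes 10.5% lay below and 2.73% above in this way. Cit, the citron kinase of the midbody, had 432 and 545 UMIs and stood at 1.01, and at 0.65 in STAR. Numa1 (595 and 365 UMIs), a spindle pole organizer, Hjurp (448 and 206 UMIs), the CENP-A chaperone, and Ncaph2 (252 and 153 UMIs), a condensin II subunit, were at -0.03, -0.44 and -0.04. The 55 replication genes summed to -0.09 (-0.16 to -0.03) in kallisto and 0.20 (0.17 to 0.23) in STAR. In kallisto 3 of 53 tested lay over 2-fold below and 0 above (all genes, 10.5% and 2.73%). Their most abundant genes were Atad2 (863 and 451 UMIs; -0.26), a chromatin ATPase, Rfc2 (320 and 177 UMIs; -0.18), a clamp loader subunit, and Clspn (306 and 186 UMIs; -0.04), encoding claspin. Pola2, a DNA polymerase alpha subunit, with 295 and 116 UMIs, changed side from -0.67 in kallisto to 0.67 in STAR.

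Detection per nucleus was compared at equal depth, after each nucleus was thinned to 1000 UMIs of the protein-coding pool in the STAR matrix. All 1123 standard nuclei and 1288 in situ polyadenylated nuclei reached that depth, and 40 of the latter did not. At least 1 member was seen in 97.7% (96.6 to 98.5) of standard and 96.2% (95 to 97.2) of in situ polyadenylated nuclei (unthinned, 100% and 98.8%). A standard nucleus held 8.08 member UMIs on average and a median of 6 different members, and an in situ polyadenylated nucleus 5.39 UMIs and 4 members. The most widely seen genes were Mki67, in 50.7% of standard and 35.4% of in situ polyadenylated nuclei, and Top2a, in 46.0% and 34.7%. Of the 40 members 38 were seen in a smaller share of in situ polyadenylated nuclei, and Ccna2 (2.58% and 3.57%) and Plk1 (2.32% and 3.11%) in a larger one. How many of all protein-coding genes were seen in a smaller share was not counted, so this is not shown to be particular to the members. In STAR the log2 ratio of the member sum was -0.62 over this pool but -0.11 against the median protein-coding gene. Free RNA can add UMIs to any droplet, and the low-UMI barcodes described further on held these genes too, so these shares are not shares of nuclei that transcribe a gene.

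Member UMIs were spread unevenly over nuclei. The variance of the member sum was 2.93 times its mean in standard and 2.88 times in in situ polyadenylated nuclei, compared with 1.90 and 1.80 for the other mitosis genes and 1.61 and 1.69 for the replication genes. A ratio of 1 would mean scatter by counting alone. The ratio grows with the mean, which was 8.96 and 6.30 UMIs for the other mitosis genes and 4.95 and 4.17 for the replication genes. The top 10% of nuclei held 22.0% and 25.9% of the member UMIs. If the members were detected independently of each other at their own rates, 9.17% of standard nuclei would hold 10 or more members, whereas 20.3% (18.0 to 22.8) did. That product of rates gives 1.08% for in situ polyadenylated nuclei, and 7.07% (5.73 to 8.60) was seen. Nuclei without any member were also more frequent than the product of rates, at 2.32% against 0.048% and 3.80% against 0.58%. Both tails of the distribution were thus heavier in both libraries.

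**Figure D3:**
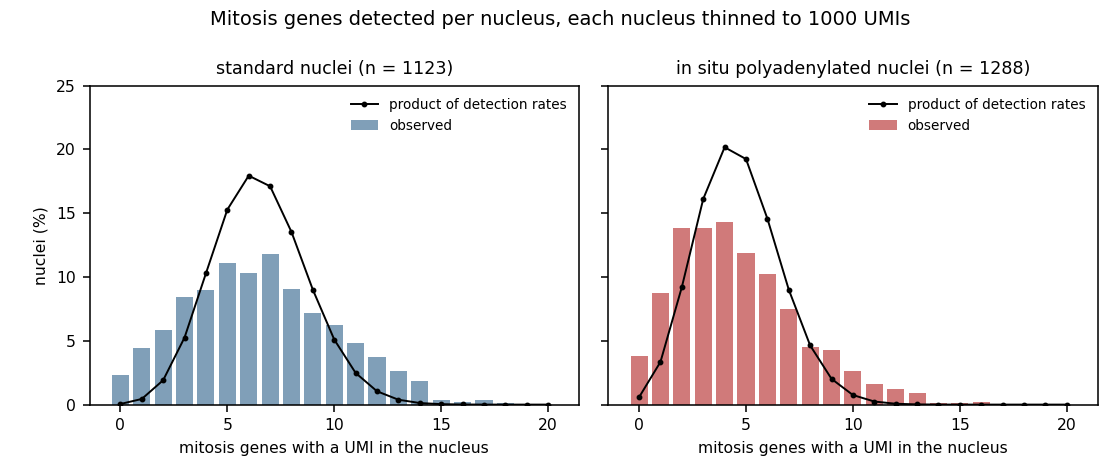
Share of nuclei (%) by the number of the 40 mitosis genes with a UMI, after thinning each nucleus to 1000 UMIs, for standard (left, n = 1123) and in situ polyadenylated nuclei (right, n = 1288). Bars are observed and the line is what the genes' separate detection rates multiply to, and the observed distribution is wider on both sides.

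Pairs of members occurred in the same nucleus 27012 times in standard nuclei, against 22960 from the product of rates, a quotient of 1.18. The counts were 16549 and 13323 in in situ polyadenylated nuclei, and the quotient 1.24. Of pairs with an expected count of at least 20, 313 of 336 were above 1 in standard nuclei (median 1.17) and 202 of 213 in in situ polyadenylated nuclei (median 1.25). These counts were not made for pairs of other protein-coding genes, so a quotient above 1 is not shown to be particular to mitosis genes. Doublets were not called, and without the 5% of nuclei with the most UMIs the quotients over all pairs were 1.17 and 1.26. The quotients of single pairs ranged from 0.74 for Ckap2l with Prc1 to 1.69 for Kif23 with Smc2 in standard nuclei. The range in in situ polyadenylated nuclei was from 0.81 for Kif11 with Tpx2 to 1.88 for Cenpe with Kif20a. The extremes were not shared: Kif23 with Smc2 stood at 0.98 in in situ polyadenylated nuclei, and Cenpe with Kif20a at 1.34 in standard nuclei.

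Pairs of abundant members, chosen after their values were seen, show this in plain shares. In standard nuclei Mki67 was seen in 59.6% (54.7 to 64.4) of the nuclei with a Kif20b UMI and in 45.5% (41.8 to 49.2) of those without. These shares were, in in situ polyadenylated nuclei, 50.4% (44.2 to 56.6) and 31.5% (28.7 to 34.5). For Top2a the Mki67 shares were 57.3% with and 45.0% without a Top2a UMI in standard nuclei, and 43.6% and 31% in in situ polyadenylated nuclei. Cenpf accompanied Cenpe in 38.0% of standard nuclei that had Cenpe and was in 28.3% of those that lacked it, with 25.4% and 15.3% in in situ polyadenylated nuclei. For these 3 pairs the intervals with and without the partner did not overlap in either library. The choice of pairs favoured such gaps, so they are an illustration and no test. How many of all pairs had such a gap was not counted.

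By role, co-detection was highest in standard nuclei between the cyclin, CDK and APC/C genes and the kinesins (quotient 1.28 over 48 pairs) and between kinesins and spindle assembly genes (1.28 over 48 pairs). In in situ polyadenylated nuclei kinetochore genes with spindle assembly genes led with 1.41 over 18 pairs. The cyclin, CDK and APC/C genes among themselves were at 1.00 in standard (27 pairs seen, 27.0 from the product of rates) and 0.91 in in situ polyadenylated nuclei (19 seen, 20.8 from the product), the lowest of all role pairs in both, at counts too small to separate from 1. The Pearson r of each gene with the sum of the other members was highest for Kif20b (0.32 in standard and 0.32 in in situ polyadenylated nuclei), Mki67 (0.31 and 0.30), Top2a (0.28 and 0.34), Cenpf (0.28 and 0.28) and Cenpe (0.26 and 0.35). Across the 40 members this r followed the share of nuclei with the gene (r = 0.86 in standard nuclei), and its order is close to the order of detection.

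Other genes were then read in the same nuclei. The member sum had a Pearson r of 0.51 over 1123 standard nuclei and 0.55 over 1288 in situ polyadenylated nuclei with the sum of the 80 other mitosis genes. With the 55 replication genes r was 0.11 and 0.14. In standard nuclei with 0 to 4, 5 to 9 and 10 or more members detected, the other mitosis genes had 6.31, 9.45 and 11.7 UMIs per nucleus (SD 3.33, 3.54 and 4.30), and the replication genes 4.34, 5.27 and 5.11 (SD 2.99, 2.76 and 2.59). In in situ polyadenylated nuclei the other mitosis genes had 5.18, 7.01 and 11.1 UMIs (SD 2.63, 3.15 and 4.30) and the replication genes 3.87, 4.5 and 4.66 (SD 2.67, 2.58 and 2.7). The other mitosis genes thus followed the members over the 3 classes, and the replication genes did so much less.

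**Figure D4:**
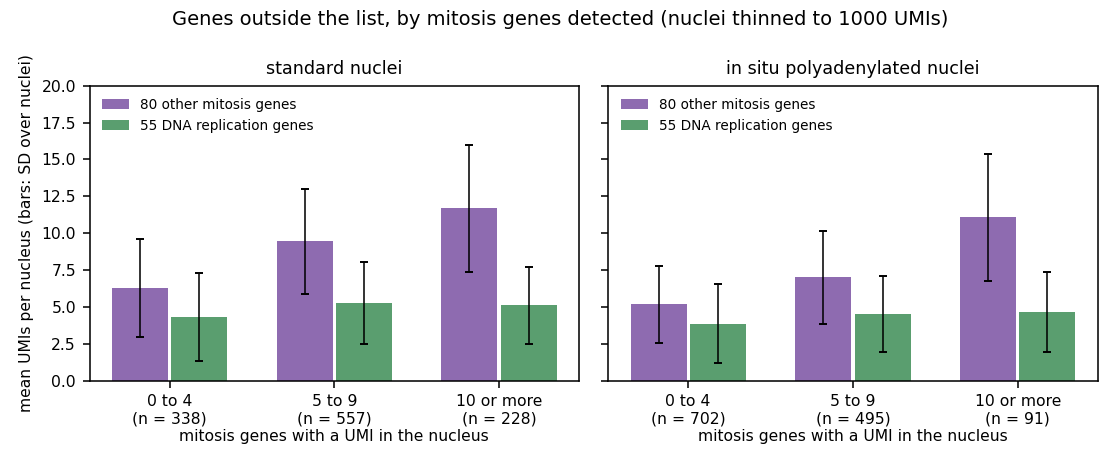
Mean UMIs per thinned nucleus of the 80 other mitosis genes and the 55 DNA replication genes in nuclei with 0 to 4, 5 to 9 or 10 or more of the 40 mitosis genes detected, with SD over nuclei as error bars. The other mitosis genes go from 6.31 to 11.7 in standard nuclei and from 5.18 to 11.1 in in situ polyadenylated nuclei, while the replication genes stay between 3.87 and 5.27.

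Depth and composition also differed between these classes, more so in in situ polyadenylated nuclei. In in situ polyadenylated nuclei the median of all STAR UMIs was 7443, 6707 and 3997 in the 3 classes, and the share of UMIs outside the protein-coding pool was 73.2%, 70.6% and 60.6%. The member sum had an r of -0.36 with that share, the other mitosis genes -0.27 and the replication genes -0.18. In standard nuclei the medians were 4547, 4449 and 4452.5 UMIs, the shares 26.8%, 27.1% and 26.9%, and the r of the members 0.053. The UMIs of the protein-coding pool before thinning had medians of 3353.5, 3254 and 3211.5 in standard and 2027, 1938 and 1603 in in situ polyadenylated nuclei, and the member sum had an r with log depth of -0.088 and -0.095. The part of depth and composition in the spread of member UMIs was not tested.

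Of 4755 genes outside the list with a UMI in at least 5% of thinned standard nuclei, the one most like the member sum was Diaph3, a formin that nucleates actin, with an r of 0.22 in standard and 0.21 in in situ polyadenylated nuclei. Ckap5, a microtubule polymerase of the spindle, was next with 0.22 and 0.23. The others of the first 10 were Cdca2 (0.18 and 0.13), Odf2 (0.18 and 0.11), Spag5 (0.18 and 0.15), Cit (0.18 and 0.20), Cep89 (0.17 and 0.11), Efcab11 (0.17 and 0.13), Hjurp (0.16 and 0.17) and Sgo2a (0.16 and 0.17). Of these 10 genes, 6 are in the list of other mitosis genes and 0 in the replication list, and the median r of all candidates was -0.0029 in standard nuclei. How many of the 4755 candidates belong to either list was not counted, and the lists were chosen with earlier results of these data known. Diaph3 was seen in 34.0% (29 to 39.3), 57.1% (52.9 to 61.2) and 62.7% (56.1 to 69.0) of standard nuclei in the 3 classes, and in 26.5%, 38.0% and 57.1% of in situ polyadenylated nuclei. Because Diaph3 was picked by its r in these same standard nuclei, its rise over the classes there follows from that choice and is no further support.

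Barcodes with 1 to 100 UMIs served as a measure of free RNA. In the standard library the members made up 0.469% of the UMIs of 226358 such barcodes and 0.651% of the UMIs of nuclei, a log2 ratio of -0.47 (-0.51 to -0.43), and 27 of 40 members were lower in the low-UMI barcodes, against 33.9% of 9807 protein-coding genes. In the in situ polyadenylated library the shares were 0.219% of 229964 barcodes' UMIs and 0.215%, a log2 ratio of 0.024 (-0.037 to 0.084), with 13 of 40 members lower, against 25.5% of 7604 protein-coding genes. The median member stood at -0.27 in the standard and 0.19 in the in situ polyadenylated library, and the median protein-coding gene at 0.21 and 0.36. The other mitosis genes summed to -0.21 and 0.13, and the replication genes to 0.17 and 0.12. Mitosis RNA was thus present in low-UMI barcodes of both libraries at shares of the same order as in nuclei.

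Single members differed widely on this measure. In the standard library Cenpe was lowest (-1.14), followed by Mki67 (-0.87), Cenpf (-0.79) and Kif20b (-0.76), and Ube2c (0.95) and Birc5 (0.90) were highest. In the in situ polyadenylated library Smc2 was lowest (-0.90), and Ccnb1 and Ccnb2 (1.36 each) and Ckap2 (1.35) were highest. Ccnb1 rested on 24 UMIs in low-UMI barcodes and 9 in nuclei (0.20 to 2.65). For Ccnb2 the counts were 16 and 6, with an interval that spanned 0 (-0.07 to 3.00). Ckap2 had 61 and 23 (0.64 to 2.11). The 20 members with the shorter gene span (median 16.2 kb) had a median of -0.21 in the standard and 0.50 in the in situ polyadenylated library, and the 20 with the longer span (median 50.3 kb) -0.37 and 0.16. Over the 40 members the r between the libraries was 0.46.

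**Figure D5:**
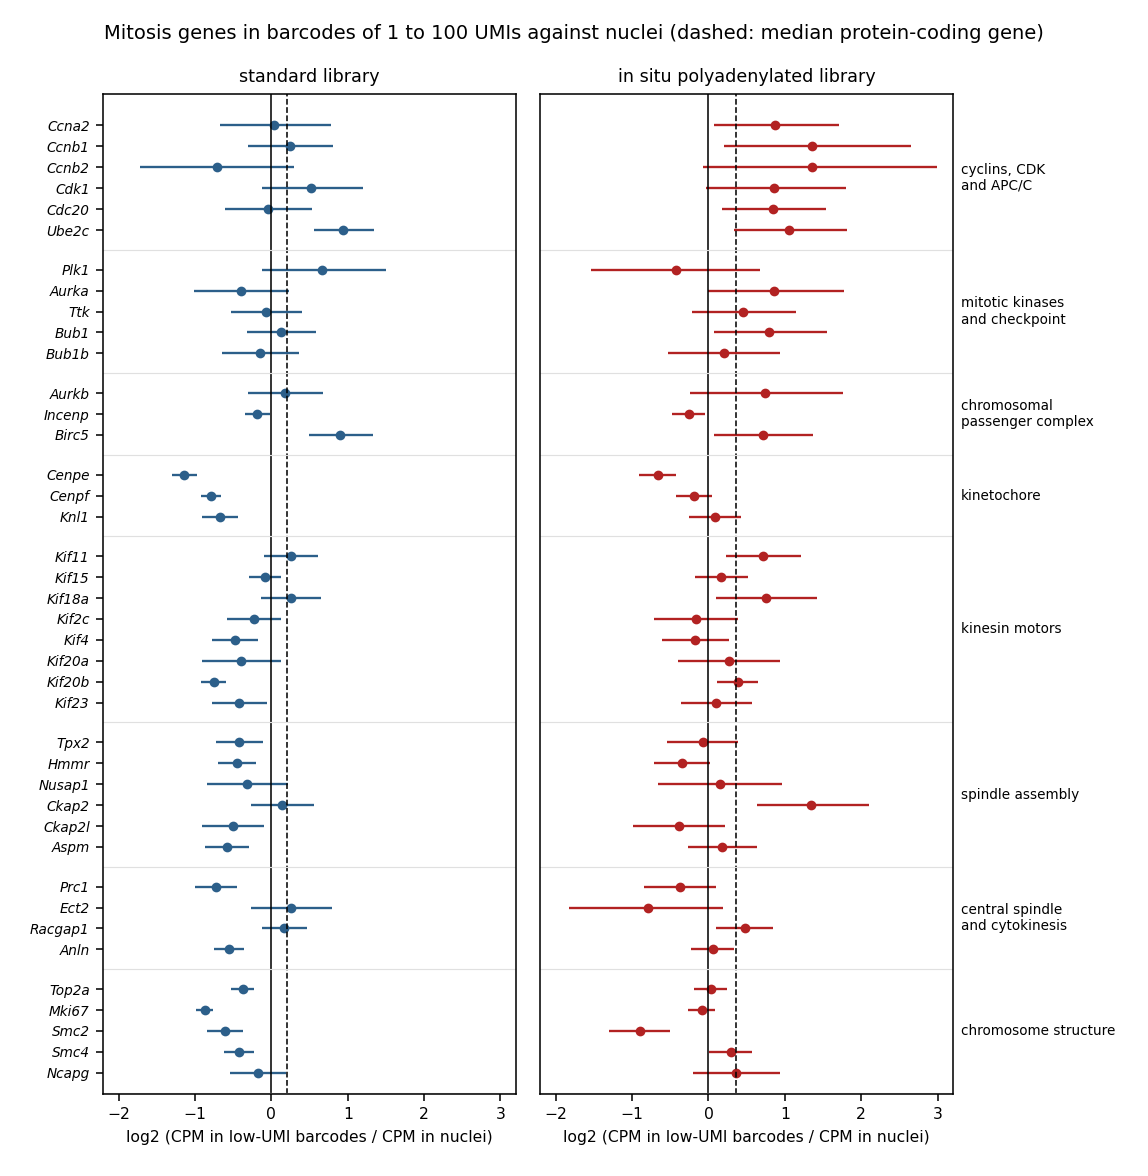
Log2 ratio of CPM in barcodes of 1 to 100 UMIs to CPM in nuclei for each mitosis gene with its 95% counting interval, in the standard (left) and in situ polyadenylated library (right), where the dashed line is the median protein-coding gene (0.21 and 0.36). Cenpe, Mki67, Cenpf and Kif20b lie furthest to the left in the standard library, and 27 of 40 genes are left of 0 there against 13 of 40 in the in situ polyadenylated library.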

How the data were processed

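The data were single-nucleus libraries of C2C12 cells, 1 per group, so that all comparisons are between libraries and no test was made. The authors trimmed reads with cutadapt 3.4 and used the GRCm39 build with a GENCODE annotation. The deposited kallisto matrices (kallisto 0.48.0, bustools 0.41.0) hold estimated counts of UMIs per gene for every barcode, and the deposited STAR matrices (STAR 2.7.10a) hold whole-number counts of UMIs for a subset of barcodes, chosen in a way not given in the sources used here. Neither is normalized. Whether reads in introns were counted by STAR is not given there either.

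Kallisto counts of barcodes with over 750 UMIs and under 5% mitochondrial UMIs were summed per gene and rounded. Doublets were not called. Log2 ratios of CPM carry the exact conditional Poisson interval and shares the exact Clopper-Pearson interval, both at 95%. They cover counting error only. Genes needed 20 UMIs over both libraries, and the floor of 3 UMIs was needed for 0 members. The scaling gene is the median of 2117 protein-coding genes in kallisto and 7752 in STAR with at least 50 UMIs in each library. Nuclei were thinned without replacement (seed 1) to 1000 UMIs of protein-coding genes that each held under 1% of UMIs in both libraries. Correlations over nuclei and genes are descriptions and carry no p. The 40 members and the gene lists were chosen with earlier results of these data known. Named in full are the member with the most UMIs of each of 8 roles, the members with the extreme ratios, the 10 genes most like the member sum, and the 4 most abundant genes of each comparison list. Other members are named with values, as all 40 may be. Nearby facts came from GENCODE M39 on the same build (54749 of 55414 genes matched). Promoters came from RefSeq on GRCm38.p6 and none was shown for Ccna2, Aurkb, Incenp, Kif20a, Tpx2 or Smc4. Python 3.11.15, numpy 2.4.6, scipy 1.17.1, pandas 2.3.3 and matplotlib 3.10.9 were used, and the code was tested on simulated data. Results were recomputed from the STAR matrix, with barcode minima of 500 and 1500 UMIs, after dropping the deepest 5% of nuclei, and with other denominators, gene minima, thinning depths and low-UMI ranges.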

Additional observations from a re-analysis of the deposited data

How the results depend on the processing

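No paired analysis was possible because there was 1 library per group. The member sum was below 0 under every alternative run. Its log2 ratio was -2.03 in the STAR matrix, -2.09 with STAR barcodes of over 750 STAR UMIs, -1.68 at a minimum of 1500 UMIs, -1.54 without the 5% of nuclei with the most UMIs, -1.54 without Mki67 and -0.40 over the protein-coding pool. Further scalings chosen after seeing the data gave -0.40 (median protein-coding gene at 0), -0.11 (the same in STAR) and -0.62 (pool in STAR). The median relative log2 ratio was -0.061 in STAR, -0.13 with the STAR barcodes and -1.48 in CPM. Members over 2-fold below numbered 0 in STAR, 0 with the STAR barcodes, 0 at a gene minimum of 100 UMIs (23 members left) and 37 in CPM, against 3. Of single-member ratios, 145 of 160 stayed within the interval of the reported value. Another 13 left it with the same sign or, where that interval spanned 0, with a change of sign. Anln in STAR (from -0.23 to 0.14) changed sign in this way. So did Kif4 (from -0.15 to 0.43) and Hmmr (from -0.16 to 0.31) at a minimum of 1500 UMIs. The other 2 changed sign from an interval wholly below 0. In STAR 10 members went from below to above 0, of which Aurkb (0.021) and Ncapg (0.097) had kallisto intervals wholly below 0. The cause was not tested.

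Nuclei with a member UMI were 85.4% and 93.8% (in situ polyadenylated and standard) when thinned to 500 UMIs, 99.0% and 99.5% at 2000, 98.8% and 100% unthinned, and 81.4% and 86.2% in kallisto thinned to 250 UMIs. They were 94.8% without Mki67 in in situ polyadenylated nuclei and 98.7% with the STAR barcodes in standard nuclei. The variance to mean was 9.93 and 20.9 unthinned, 1.81 and 1.90 in kallisto, and in standard nuclei 1.91 at 500 and 4.66 at 2000 UMIs, since it grows with the mean. The quotient of observed to expected co-detection stayed above 1 and within 1.5 times its value throughout. The correlation with replication genes was the least stable: 0.59 and 0.69 unthinned, 0.041 at 500 UMIs in standard nuclei, 0.087 with the STAR barcodes and 0.018 in kallisto in in situ polyadenylated nuclei, and it reversed to -0.0029 with the STAR barcodes in standard nuclei. The log2 ratio of low-UMI barcodes to nuclei was -0.057 and -0.29 for barcodes of 1 to 10 UMIs, -0.21 and -0.075 for over 100 and up to 500, and -0.19 and -0.53 over the pool. Depth limits the cyclins and kinases most, where single members had 6 to 72 kallisto UMIs per library.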

Other observations

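Histone genes of the replication-dependent clusters, whose mRNAs end in a stem-loop instead of a poly(A) tail and are made in S phase, were looked at in the same thinned nuclei. The set of 63 genes was chosen by symbol after the data were seen. It had 0.90 UMIs per nucleus in standard and 4.14 in in situ polyadenylated nuclei, and was seen in 55.9% and 93.5% of them. The Pearson r of the histone sum with the mitosis gene sum was 0.15 over 1123 standard and 0.13 over 1288 in situ polyadenylated nuclei, and with the replication gene sum 0.086 and 0.098.

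At the other end of the likeness to the mitosis gene sum in standard nuclei were Ank (r = -0.16), Vcan (-0.15) and Baiap2l1 (-0.15), seen in 53.1%, 57.4% and 22.4% of thinned standard nuclei. In in situ polyadenylated nuclei their r was 0.014, 0.0084 and 0.033.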
